A study of Mus musculus with 6 samples.

Results

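The 37 genes of the mouse mitochondrial genome were taken from the deposited tables as every gene whose symbol starts with mt-, out of 55401 genes in all. They are 13 protein genes, 2 ribosomal RNA (rRNA) genes and 22 transfer RNA (tRNA) genes by the biotype given in the tables, and the rule reads the symbol alone. RNA of whole mouse kidney was sequenced in 6 libraries, 3 from Cdo1KKO/Sed mice and 3 from WT/Sed mice, each labelled as a separate biological replicate. The Cdo1KKO/Sed mice have the genotype KO for Cdo1, the gene of cysteine dioxygenase, which oxidises cysteine on the way to taurine. The WT/Sed mice are wild type. The mice of both groups had received streptozotocin, a toxin of insulin-producing cells, to induce type 1 diabetes. The study asks which genes respond in the diabetic kidney to the loss of Cdo1 in renal tubules. The labels do not spell out Sed, do not name the Cre line or promoter behind the deletion, and give no age, sex, litter or batch. RNA with a poly(A) tail was enriched with oligo(dT) beads before library preparation.

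Library totals lay between 28145261 and 43872779 counts, with 21993 to 24418 genes detected in a library. Cdo1 itself stood at 109, 118 and 103 CPM (counts scaled to a common library size) in Cdo1KKO/Sed kidneys, against 181, 191 and 180.5 CPM in WT/Sed kidneys, and fell by 0.74 ± 0.06 on the log2 scale (SE; edgeR quasi-likelihood test with Benjamini-Hochberg adjustment, adjusted p = 4.64e-06). CPM values were scaled between libraries by TMM, and the same test, with a threshold of 0.05 on the adjusted p, gave every fold change that follows. Its p-values measure the spread between these libraries. Markers of both proximal tubule lists were present and summed to 3572 to 3977 CPM (S1 segment) and 3234 to 3680.1 CPM (S2 and S3 segments) in Cdo1KKO/Sed kidneys, against 5951 to 7015 CPM and 4759 to 6211 CPM in WT/Sed kidneys. Because whole kidney was sequenced, fewer cells of a type and less RNA per cell cannot be told apart.

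Mitochondrial DNA encodes core subunits of respiratory complexes I, III and IV and of the ATP synthase (complex V), together with the rRNAs and tRNAs needed to translate them inside the organelle. Both strands are transcribed into long precursors by a nuclear-encoded polymerase. The tRNAs that lie between the other genes are cut out to release mRNAs and rRNAs, most of which receive short poly(A) tails. A termination site just downstream of the rRNA genes was once proposed to let the rRNAs be made separately from the mRNAs. All other proteins of the organelle, including the rest of each complex, come from nuclear genes. The proximal tubule is among the cells of the body richest in mitochondria and relies on respiration for reabsorption.

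Features of the gene sequences that a reader of these counts may want at hand are shown first; the stretches are from GENCODE M21 transcripts on the GRCm38 build, written 5′ to 3′. First, a block of mitochondrial genes has near-identical copies on the minus strand of chromosome 1, so that a short read can match both. The first 60 bases of mt-Co2 (chrM:7013-7072, plus strand) and of its copy Gm28661 (chr1:24615506-24615565, minus strand) do not differ, and the aligned 681 bases hold no mismatch. The first 60 bases of mt-Nd3 (chrM:9459-9518, plus strand) and of its copy Gm28438 (chr1:24613060-24613119, minus strand) hold the only mismatch in 345 aligned bases, T3C, in capitals, with positions counted from 1 at the 5′ end of the mitochondrial gene.
mt-Co2: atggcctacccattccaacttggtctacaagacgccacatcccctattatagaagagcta
Gm28661: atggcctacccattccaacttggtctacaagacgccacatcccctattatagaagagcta
mt-Nd3: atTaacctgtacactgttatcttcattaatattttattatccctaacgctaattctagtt
Gm28438: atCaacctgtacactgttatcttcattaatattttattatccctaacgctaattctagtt

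Next, neighbouring genes overlap. The last 14 bases of mt-Nd5 (chrM:13526-13565, plus strand) and of mt-Nd6 (chrM:13552-13591, minus strand) are the same base pairs read on opposite strands, shown in capitals. The end of mt-Atp8 (chrM:7910-7969, plus strand) holds the first 43 bases of mt-Atp6, in capitals. The strand setting of the authors' counting is not given in the sources used here, so reads of mt-Nd6 and of its antisense strand cannot be told apart.
mt-Nd5: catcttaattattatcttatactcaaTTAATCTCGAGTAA
mt-Nd6: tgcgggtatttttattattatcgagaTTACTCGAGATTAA
mt-Atp8: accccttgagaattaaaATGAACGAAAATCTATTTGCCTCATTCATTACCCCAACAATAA

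Last come stretches that end in, or hold, bases linked to poly(A) RNA. The genes mt-Co3 (chrM:9366-9390), mt-Nd4 (chrM:11520-11544) and mt-Cytb (chrM:15264-15288), all on the plus strand, end in a single T of an incomplete stop codon, in capitals, which the poly(A) tail completes in the mRNA. The rRNA genes are shown around their longest internal run of A, in capitals, which is 5 bases in mt-Rnr1 (stretch chrM:680-734) and 7 bases in mt-Rnr2 (stretch chrM:1463-1519). Among the protein genes the longest such run reaches from 3 bases in mt-Nd6 to 8 in mt-Nd2, and the part of these runs in the counts was not tested. The tRNA gene mt-Tp (chrM:15356-15422, minus strand) is shown whole because it held nearly all tRNA counts.
mt-Co3: gtctccatttattgatgaggatctT
mt-Nd4: aaactaattacaggcctgacaataT
mt-Cytb: gacaaaatactaaaattatatccaT
mt-Rnr1: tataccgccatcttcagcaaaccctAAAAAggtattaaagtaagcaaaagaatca
mt-Rnr2: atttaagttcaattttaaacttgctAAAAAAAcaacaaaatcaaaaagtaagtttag
mt-Tp: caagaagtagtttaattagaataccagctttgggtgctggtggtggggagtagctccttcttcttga

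The mitochondrial genes took a smaller share of the counts in Cdo1KKO/Sed kidneys. They held 13.9%, 13.97% and 14.3% of all counts in Cdo1KKO/Sed kidneys, against 16.1%, 16.5% and 16.1% in WT/Sed kidneys. Exact binomial 95% intervals, which cover counting error only, were narrow beside this gap, with 14.26% to 14.28% for the highest Cdo1KKO/Sed library and 16.10% to 16.12% for the lowest WT/Sed library. The groups did not overlap, and their means differed by -2.19 percentage points (14.05% ± 0.200 in Cdo1KKO/Sed and 16.2% ± 0.197 in WT/Sed; SD, n = 3 each). As a share of the deposited TPM, a unit that divides counts by gene length, the genes held 30.0% ± 0.472 in Cdo1KKO/Sed kidneys and 33.0% ± 0.204 in WT/Sed kidneys. Protein genes made up nearly all of these counts, with 13.5% ± 0.192 of all counts in Cdo1KKO/Sed and 15.8% ± 0.208 in WT/Sed. The rRNA genes together held 0.502% ± 0.0206 in Cdo1KKO/Sed and 0.414% ± 0.0201 in WT/Sed. Of these, mt-Rnr1 averaged 0.250% in Cdo1KKO/Sed and 0.119% in WT/Sed, while mt-Rnr2 averaged 0.252% in Cdo1KKO/Sed and 0.295% in WT/Sed.

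**Figure D1:**
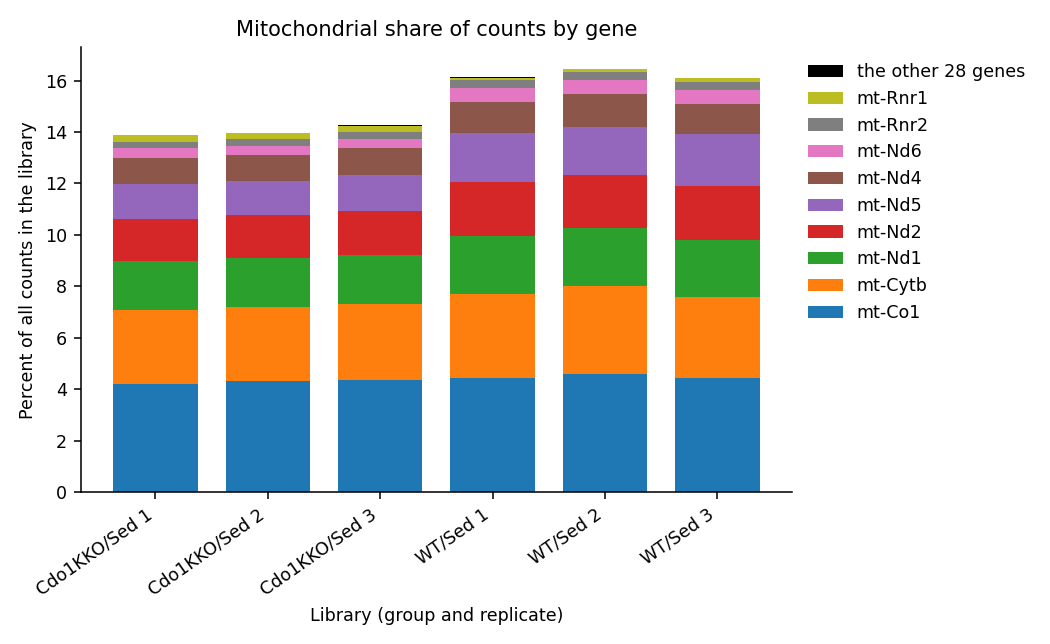
Percent of all counts (y axis) taken by mitochondrial genes in each library (x axis, group and replicate), stacked by gene, with the other 28 mitochondrial genes as a barely visible black line. The 3 Cdo1KKO/Sed libraries stand at 13.9% to 14.3% and the 3 WT/Sed libraries at 16.1% to 16.5%, and the mt-Rnr1 segment is the only labelled one that is taller in Cdo1KKO/Sed.

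Of the 37 genes, 17 passed the filter on low counts: all 13 protein genes, both rRNA genes and the tRNA genes mt-Tc and mt-Tp. Among them 13 fell, where 18.5% of the 17194 genes tested fell, and 1 rose, where 18.9% of all genes rose. That balance over all genes moved with scaling: 9.80% fell and 32.1% rose with library size alone, 7.25% fell and 39.5% rose with log2(TPM + 1), 7.12% fell and 38.7% rose with log2(TPM + 0.1), and 3.43% fell and 18.5% rose with log2(TPM + 1) over 29483 genes without the filter. Of the 17 tested members 12, 9, 9 and 8 fell in those 4 settings, and mt-Rnr1 rose in each. The 3 that did not pass the test were mt-Atp8, mt-Nd3 and mt-Tc. In 13 genes every Cdo1KKO/Sed library was below every WT/Sed library, an arrangement seen in 24.5% of all genes tested, and in mt-Rnr1 every Cdo1KKO/Sed library was above, as in 25.7% of all genes. The median log2 fold change over the 13 protein genes was -0.53, against 0.01 over all genes tested.

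**Figure D2:**
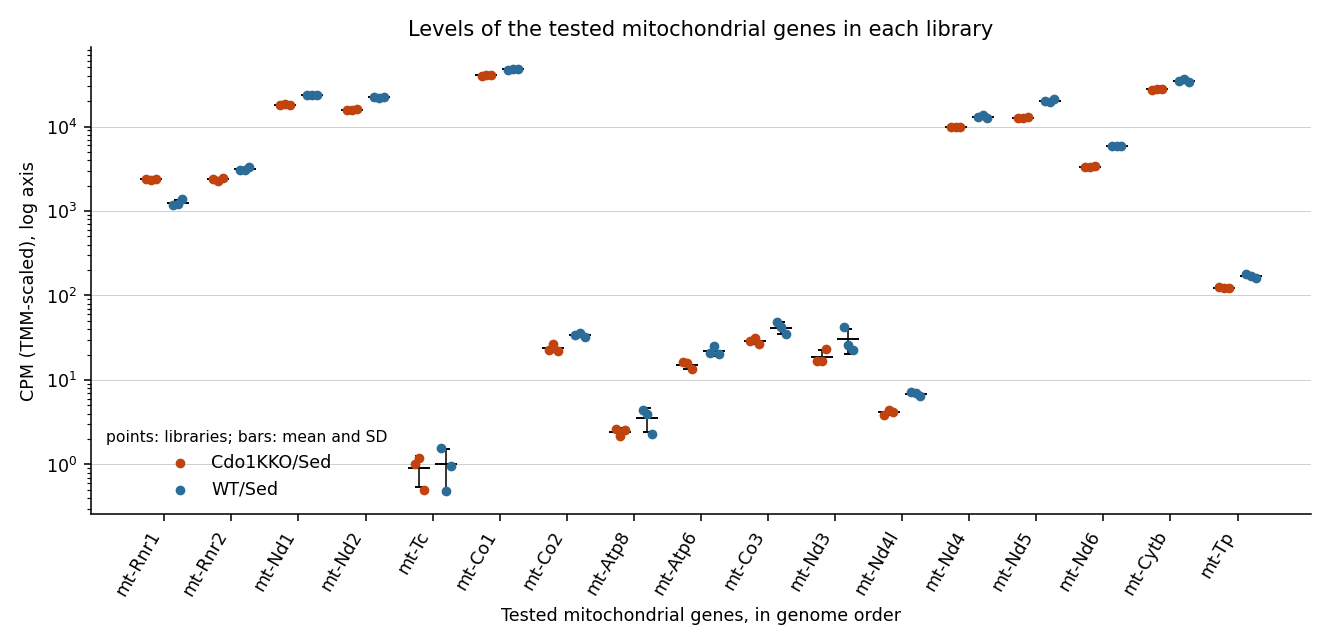
CPM on a log axis (y) of the 17 tested mitochondrial genes in genome order (x), with a point per library, Cdo1KKO/Sed left of WT/Sed, and black bars for mean and SD. Levels span several orders of magnitude between genes, and mt-Rnr1 is the gene whose Cdo1KKO/Sed points (2302 to 2407 CPM) lie above its WT/Sed points (1191 to 1373 CPM).

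The protein genes formed 2 sets by level. Per gene length, mt-Co1, mt-Cytb, mt-Nd1, mt-Nd2, mt-Nd5, mt-Nd6 and mt-Nd4 averaged 17417 to 70945 TPM in Cdo1KKO/Sed kidneys and 21489 to 70044 TPM in WT/Sed kidneys. By mean TPM over all libraries mt-Co1 ranked 2, mt-Cytb 3, mt-Nd1 4 and mt-Nd2 5 among all genes. The other 6, mt-Co2, mt-Atp8, mt-Atp6, mt-Co3, mt-Nd3 and mt-Nd4l, lie next to each other between mt-Co1 and mt-Nd4 and averaged 32.4 to 148 TPM in Cdo1KKO/Sed and 39.3 to 198 TPM in WT/Sed. In the deposited values, subunits of the same complex thus stood far apart. The counted level of mt-Co1 was 751 times that of mt-Co2 in Cdo1KKO/Sed and 620.3 times in WT/Sed, both per length. In complex I the counted level of mt-Nd4 was 512 times that of its neighbour mt-Nd4l in Cdo1KKO/Sed and 412.5 times in WT/Sed. Levels of the copied genes mt-Co2 and mt-Nd4l are uncertain, as described next, so these ratios need not hold for the RNAs.

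All of these low genes except mt-Atp8 are copied nearly whole on chromosome 1. An exact match in another annotated transcript was found for 99.5% of the 100-base windows of mt-Co2, for 99.5% of mt-Atp6, for 99.9% of mt-Co3, for 97.6% of mt-Nd3 and for 98.5% of mt-Nd4l. For mt-Atp8 no window matched an annotated transcript, and the chromosome 1 interval between the copies of mt-Co2 and mt-Atp6 was not examined, since no genome sequence was used here. Among the high genes the share was 60.8% in mt-Nd4, 30.8% in mt-Co1, 3.20% in mt-Nd2, and 0 in mt-Nd1, mt-Nd5, mt-Nd6 and mt-Cytb. How the authors treated reads that match several places is not given in the sources used here, so levels of copied genes are uncertain; the part of the copies in the low levels was not tested.

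**Figure D3:**
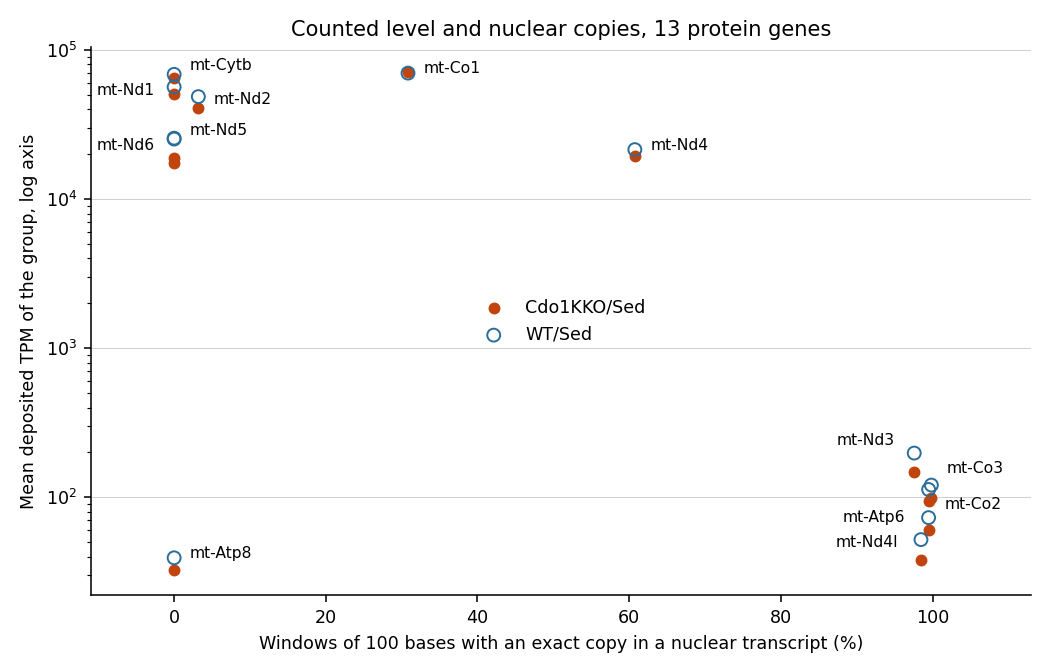
Mean deposited TPM of each group (y, log axis; filled, Cdo1KKO/Sed; open, WT/Sed) against the percentage of 100-base windows with an exact copy in another annotated transcript (x) for the 13 protein genes. Genes at 97.6% or more lie at 198 TPM or less, mt-Atp8 lies low at 0%, and the other 7 genes lie at 17417 TPM or more.

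Complex I, the NADH dehydrogenase that passes electrons to ubiquinone, has 7 subunits from the mitochondrial genome, and 6 of them fell. The gene with the greatest fall among the members that passed was mt-Nd6 (ENSMUSG00000064368.1, chrM:13552-14070), the only protein gene on the minus strand, which encodes a membrane subunit. It stood at 3332, 3313 and 3376 CPM in Cdo1KKO/Sed kidneys, against 5849, 5936 and 5805 CPM in WT/Sed kidneys. The 3 Cdo1KKO/Sed libraries were close to each other and far below the WT/Sed libraries. The part of antisense reads and of poly(A) capture in these counts was not tested. The log2 fold change was -0.81 ± 0.04 (SE; edgeR adjusted p = 9.49e-08), or 0.570 of the WT/Sed level.

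The next gene on the map, mt-Nd5 (ENSMUSG00000064367.1, chrM:11742-13565), which encodes a proton-pumping subunit, also fell. Its level was 12553, 12627 and 13019.6 CPM in Cdo1KKO/Sed kidneys, against 20072, 19427 and 21414 CPM in WT/Sed kidneys. The groups were well separated, and the log2 fold change was -0.67 ± 0.04 (edgeR adjusted p = 9.66e-07). For mt-Nd4l (chrM:9877-10173), a small membrane subunit among the low genes, the level was 3.83, 4.38 and 4.23 CPM in Cdo1KKO/Sed, against 7.12, 6.93 and 6.40 CPM in WT/Sed. It fell by 0.71 ± 0.13 on the log2 scale (edgeR adjusted p = 0.00168), and its wider error goes with its few counts, 493 in Cdo1KKO/Sed and 725 in WT/Sed.

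The remaining complex I genes of the high set fell by less. The gene mt-Nd2 (chrM:3914-4951), also of a proton-pumping subunit, stood at 15623, 15775 and 15917 CPM in Cdo1KKO/Sed, against 22466, 21848 and 22460.4 CPM in WT/Sed, and fell by 0.50 ± 0.04. For mt-Nd1 (chrM:2751-3707), whose subunit helps form the ubiquinone site, the values were 17783, 18275 and 17894 CPM in Cdo1KKO/Sed, against 23882, 23762 and 23815 CPM in WT/Sed, a fall of 0.41 ± 0.04. For mt-Nd4 (chrM:10167-11544), of a further proton-pumping subunit, they were 9796, 9736 and 9994 CPM in Cdo1KKO/Sed, against 12838, 13667 and 12629.9 CPM in WT/Sed, a fall of 0.41 ± 0.04. The adjusted p in edgeR was 1.84e-06 for mt-Nd2, 7.21e-06 for mt-Nd1 and 2.62e-05 for mt-Nd4, and no gene of these overlapped between the groups. The exception in complex I was mt-Nd3 (chrM:9459-9806), with 16.9, 16.8 and 23.2 CPM in Cdo1KKO/Sed, against 42.1, 26.3 and 22.8 CPM in WT/Sed. A Cdo1KKO/Sed library lay above the lowest WT/Sed library, and the log2 fold change of -0.68 ± 0.28 did not pass (edgeR adjusted p = 0.116). With a library left out it lay between -0.86 (without WT/Sed replicate 3) and -0.37 (without WT/Sed replicate 1) and passed in no case.

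The single mitochondrial gene of complex III is mt-Cytb (ENSMUSG00000064370.1, chrM:14145-15288), cytochrome b, through which electrons pass from ubiquinol. It had 26997, 27419 and 27967 CPM in Cdo1KKO/Sed kidneys, against 34498, 36036 and 33357 CPM in WT/Sed kidneys. The groups were separate, and it fell by 0.33 ± 0.04 (edgeR adjusted p = 6.94e-05). With TPM the value was -0.08 and did not pass (limma adjusted p of 0.0564 to 0.0862 over the 3 TPM settings); with log2(TPM + 1) the median of all genes was 0.19, and mt-Cytb stood at -0.27 relative to it.

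Complex IV, cytochrome c oxidase, which reduces oxygen, has 3 mitochondrial subunits, and all 3 fell, though with TPM mt-Co1 and mt-Co3 did not. The gene of the catalytic subunit, mt-Co1 (ENSMUSG00000064351.1, chrM:5328-6872), showed the smallest fall among the protein genes. It had 39575, 41133 and 40822 CPM in Cdo1KKO/Sed kidneys, against 47036, 48474 and 47475 CPM in WT/Sed kidneys. The log2 fold change was -0.23 ± 0.04 (edgeR adjusted p = 3.58e-04) with no overlap between groups, yet its call depended on scaling: with library size alone it was -0.07 (edgeR adjusted p = 0.136), and on the log2(TPM + 1) scale it turned to 0.02 (limma adjusted p = 0.573). In those settings the median of all genes was itself 0.18 and 0.19, and relative to that median mt-Co1 stood at -0.24 and -0.17.

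The other members of complex IV are among the low genes. For mt-Co2 (chrM:7013-7696), the subunit that accepts electrons from cytochrome c, values were 22.8, 26.8 and 22.1 CPM in Cdo1KKO/Sed, against 34.5, 35.5 and 32.0 CPM in WT/Sed. It fell by 0.51 ± 0.08 (edgeR adjusted p = 7.09e-04) without overlap. For mt-Co3 (chrM:8607-9390), a core membrane subunit, values were 28.8, 31.3 and 26.5 CPM in Cdo1KKO/Sed, against 48.4, 42.2 and 34.7 CPM in WT/Sed. It fell by 0.53 ± 0.12 (edgeR adjusted p = 0.00685), also without overlap. With TPM it was at -0.27 and did not pass (limma adjusted p of 0.0861 to 0.179 over the 3 TPM settings).

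Of complex V, the ATP synthase, the mitochondrial genome encodes 2 membrane subunits, and 1 of them fell. The gene mt-Atp6 (chrM:7927-8607), whose subunit forms the path of protons, had 16.3, 15.7 and 13.5 CPM in Cdo1KKO/Sed, against 20.9, 24.9 and 20.1 CPM in WT/Sed. The groups did not overlap, and it fell by 0.53 ± 0.11 (edgeR adjusted p = 0.00229). The adjoining mt-Atp8 (chrM:7766-7969), a small stator subunit, had 2.60, 2.16 and 2.55 CPM in Cdo1KKO/Sed, against 4.39, 3.94 and 2.29 CPM in WT/Sed. WT/Sed replicate 3 lay within the Cdo1KKO/Sed range, and the log2 fold change of -0.53 ± 0.25 did not pass (edgeR adjusted p = 0.117); without that library it was -0.78 and passed (edgeR adjusted p = 0.00477), and without WT/Sed replicate 1 it was -0.34 and did not.

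The mRNAs did not fall in equal measure. To compare the members among themselves, each gene was set against the summed counts of the 13 protein genes of its library, here called the mitochondrial mRNA pool, in the same edgeR test. Relative to this pool 3 tested members fell, mt-Nd6, mt-Nd5 and mt-Nd2, where 4.02% of all genes did, and 2 rose, mt-Rnr1 and mt-Co1, where 54.2% of all genes did. The median of all genes was 0.40 in that fit, since the pool itself was lower in Cdo1KKO/Sed. With so many genes passing, the adjustment over all genes raised p-values only a little, for mt-Nd2 from 0.0226 to 0.0403 in edgeR. The other 12 tested members did not pass.

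In the pool, mt-Nd6 made up 2.65%, 2.58% and 2.62% in Cdo1KKO/Sed kidneys, against 3.51%, 3.51% and 3.47% in WT/Sed kidneys. The spread within each group was small beside the gap, and its log2 change relative to the pool was -0.42 ± 0.04 (edgeR adjusted p = 8.84e-06). For mt-Nd5 the part was 9.98%, 9.84% and 10.1% in Cdo1KKO/Sed, against 12.03%, 11.5% and 12.8% in WT/Sed, a log2 change of -0.28 ± 0.05 (edgeR adjusted p = 3.80e-04). For mt-Co1 it was 31.5%, 32.0% and 31.6% in Cdo1KKO/Sed, against 28.2%, 28.6% and 28.4% in WT/Sed, a log2 change of 0.16 ± 0.04 (edgeR adjusted p = 0.00268). In all 3 genes the groups were apart, with mt-Co1 alone higher in Cdo1KKO/Sed. The protein genes together make up the whole pool, so lower parts of some go with higher parts of others. The change of mt-Nd2 was -0.10 ± 0.04 (edgeR adjusted p = 0.0403). It no longer passed when any library other than WT/Sed replicate 2 was left out (edgeR adjusted p of 0.0623 to 0.181), with values of -0.11 to -0.09.

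**Figure D4:**
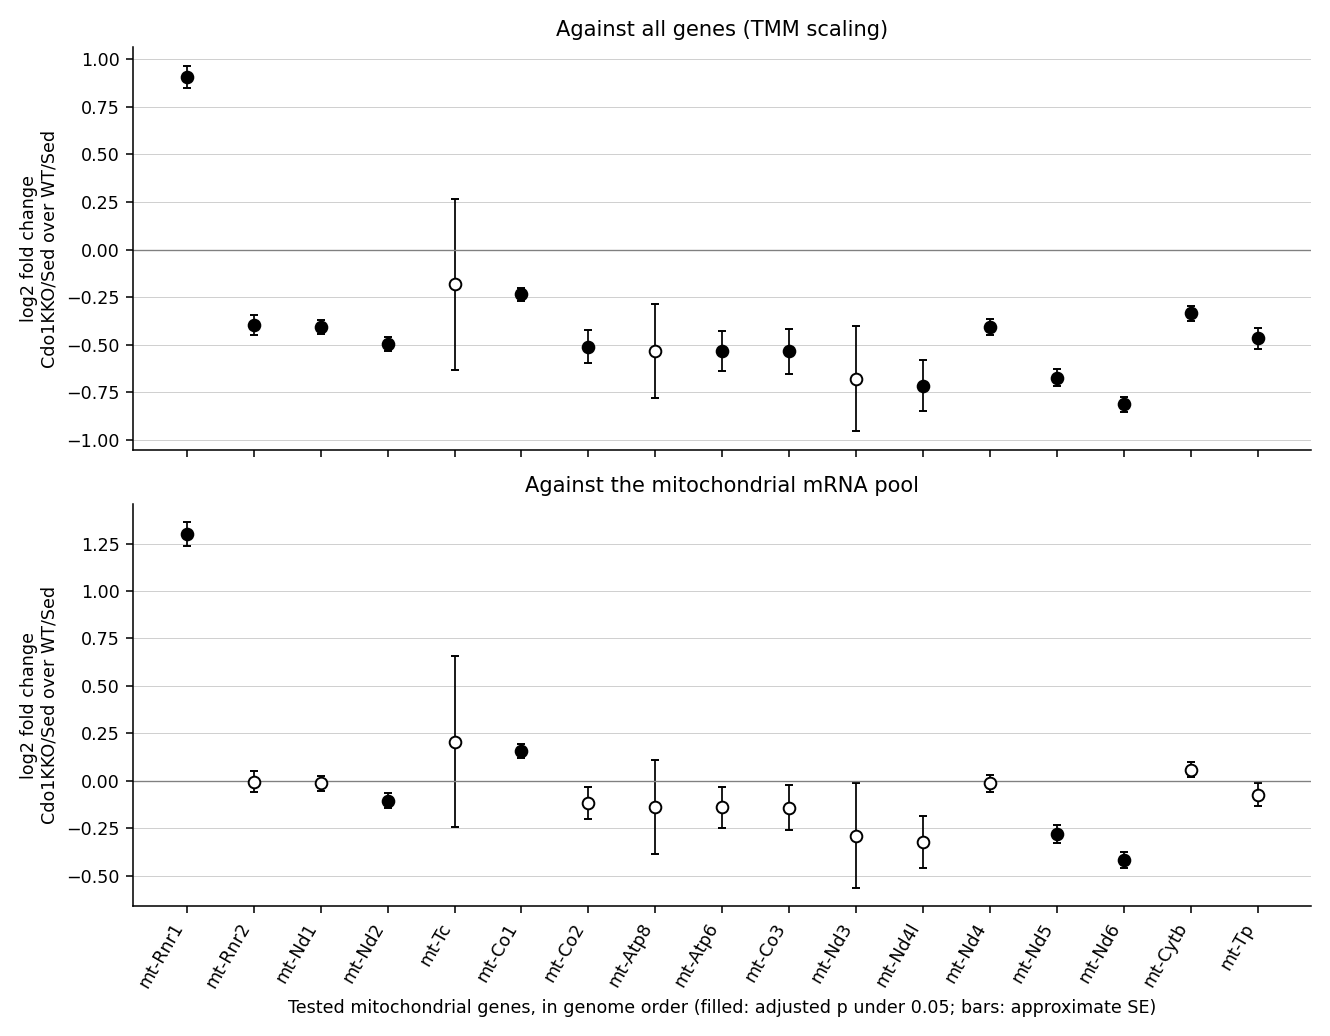
Log2 fold change of Cdo1KKO/Sed over WT/Sed (y) with approximate SE for the 17 tested genes in genome order (x), against all genes (upper panel) and against the summed counts of the 13 mitochondrial protein genes (lower panel), with filled points at an adjusted p under 0.05. In the upper panel mt-Rnr1 is at 0.91 and mt-Nd6 is lowest at -0.81, the signs of mt-Co1 (-0.23) and of mt-Tc (-0.18) turned with TPM, and in the lower panel mt-Rnr2, mt-Nd1 and mt-Nd4 lie within 0.02 of 0.

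Count ratios between members, which do not depend on scaling between libraries, showed both equal and unequal change. The count of mt-Nd4 over that of mt-Nd1 was 0.547 ± 0.0132 in Cdo1KKO/Sed and 0.548 ± 0.0241 in WT/Sed (SD, n = 3 each), not separable at this spread. The count of mt-Nd5 over that of mt-Cytb, which lies beyond mt-Nd6 on the plus strand, was 0.464 ± 0.00275 in Cdo1KKO/Sed and 0.588 ± 0.0517 in WT/Sed. The minus-strand mt-Nd6 over mt-Cytb was 0.122 ± 0.00152 in Cdo1KKO/Sed and 0.169 ± 0.00466 in WT/Sed. Over mt-Nd5, which fell too, mt-Nd6 differed less, with 0.262 ± 0.00305 in Cdo1KKO/Sed and 0.289 ± 0.0173 in WT/Sed. In each ratio with mt-Nd5 or mt-Nd6 as numerator, each Cdo1KKO/Sed library was below each WT/Sed library. Since the strand setting is not given, counts of mt-Nd6 may include reads of the opposite strand.

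The rRNA genes moved in opposite directions, though with TPM the fall of mt-Rnr2 did not pass. The 12S rRNA gene mt-Rnr1 (ENSMUSG00000064337.1, chrM:70-1024), which encodes the RNA of the small subunit of the mitochondrial ribosome, had 2380.4, 2302 and 2407 CPM in Cdo1KKO/Sed kidneys, against 1191, 1215 and 1373 CPM in WT/Sed kidneys. Every Cdo1KKO/Sed library was far above every WT/Sed library, at 1.88 times the WT/Sed mean, and the gene rose by 0.91 ± 0.06 on the log2 scale (edgeR adjusted p = 8.13e-07). Relative to the mRNA pool the log2 change was 1.30 ± 0.06 (edgeR adjusted p = 2.85e-08). Per length it averaged 6697 ± 235 TPM in Cdo1KKO/Sed and 2997 ± 269 TPM in WT/Sed (SD, n = 3 each).

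The 16S rRNA gene mt-Rnr2 (ENSMUSG00000064339.1, chrM:1094-2675), of the large subunit, is separated from mt-Rnr1 by a single tRNA gene, mt-Tv. It had 2422, 2259 and 2454 CPM in Cdo1KKO/Sed kidneys, against 3053, 3052 and 3289 CPM in WT/Sed kidneys. It fell by 0.40 ± 0.05 (edgeR adjusted p = 1.18e-04), beside 0.41 for the neighbouring mRNA gene mt-Nd1, and relative to the pool its value was -0.00 ± 0.05 (edgeR adjusted p = 0.958). With TPM it was at -0.14 and did not pass (limma adjusted p of 0.0644 to 0.128 over the 3 TPM settings); relative to the median of all genes it stood at -0.34 with log2(TPM + 1). The count of mt-Rnr1 over mt-Rnr2 was 0.983, 1.02 and 0.981 in Cdo1KKO/Sed libraries, against 0.390, 0.398 and 0.418 in WT/Sed libraries, a ratio of means of 2.47.

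Because the libraries were made from poly(A) RNA, rRNA counts reflect only what oligo(dT) captured. Nuclear RNAs known to lack a poly(A) tail, a list of 19 genes added after the values were seen, summed to 4.05 to 7.37 CPM in Cdo1KKO/Sed and 5.62 to 8.96 CPM in WT/Sed. Of the 4 that could be tested, the histone gene H1f3 fell (-2.02 ± 0.44; edgeR adjusted p = 0.00409), and none rose in edgeR, DESeq2 or limma-voom, at an unadjusted p under 0.05 as well. Rn7sk, the small nuclear 7SK RNA, was at 0.40 ± 0.35 (edgeR adjusted p = 0.413). Over all genes tested 18.5% fell and 18.9% rose. With so few tested genes at such low levels, a rise shared by these RNAs could have been missed. The part of RNA capture in the mt-Rnr1 difference was not tested.

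The tRNA genes gave few counts in these libraries; tRNAs are short and are not normally stored with a poly(A) tail. Of 22 tRNA genes, 12 were at 0 in all 6 libraries, where 3 counts would correspond to 0.0269 CPM over the Cdo1KKO/Sed libraries and 0.0265 CPM over the WT/Sed libraries. The genes differed by strand: the 14 on the plus strand held 13 counts in all, 10 of them in mt-Tl1, and the 8 on the minus strand held 32970, of which 32632 lay in mt-Tp. The other 7 minus-strand genes held 338, including 217 in mt-Tc, 56 in mt-Te and 48 in mt-Tn.

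The proline tRNA gene mt-Tp (ENSMUSG00000064372.1) ranked 12 among all genes by mean TPM, a unit that divides by its length of 67 bases. It had 125, 123 and 122 CPM in Cdo1KKO/Sed kidneys, against 180.0, 171 and 159 CPM in WT/Sed kidneys. The groups were apart, and it fell by 0.47 ± 0.06 (edgeR adjusted p = 7.54e-05), with -0.07 ± 0.06 relative to the mRNA pool (edgeR adjusted p = 0.316). The cysteine tRNA gene mt-Tc had 1.01, 1.21 and 0.501 CPM in Cdo1KKO/Sed, against 1.57, 0.487 and 0.949 CPM in WT/Sed, which overlapped (log2 fold change -0.18 ± 0.45; edgeR adjusted p = 0.786; -0.48 to 0.29 with a library left out). Summed over libraries, untested mt-Te had 20 counts in Cdo1KKO/Sed and 36 in WT/Sed, and mt-Tn had 21 in Cdo1KKO/Sed and 27 in WT/Sed. For mt-Tq the sums were 2 in Cdo1KKO/Sed and 10 in WT/Sed, and for mt-Tl1 they were 2 in Cdo1KKO/Sed and 8 in WT/Sed. The remaining tRNA genes with any count, mt-Ta, mt-Tl2, mt-Th and mt-Ty, held 4 or fewer.

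Of 7 chromosome 1 copies of these genes, 6 fell, where 18.5% of all genes tested fell. A read can match both gene and copy, so these calls may not be separate from those of the genes. The copy Gm10925 (copy of mt-Atp6, 678 bases without a mismatch) averaged 39.2 ± 5.31 CPM in Cdo1KKO/Sed and 52.4 ± 3.50 CPM in WT/Sed (SD, n = 3 each), a log2 fold change of -0.42 ± 0.10 (edgeR adjusted p = 0.00593). The copies of mt-Co2 (Gm28661, -0.35 ± 0.09) and of mt-Co3 (Gm28437, 783 bases without a mismatch, -0.43 ± 0.12) fell too, as did those of part of mt-Nd4 (Gm28439, -0.38 ± 0.08), of part of mt-Co1 (Gm29216, 483 bases with the mismatch A1066T, -0.55 ± 0.13) and of mt-Nd4l (Gm10222, -0.48 ± 0.13). Only Gm28438, the copy of mt-Nd3, did not pass at -0.49 ± 0.19 (edgeR adjusted p = 0.0605). For mt-Atp6 the copy held more counts than the gene itself, 10139 against 4078 over all libraries, and for mt-Co2 it held 7920 against 6430. Whether a count at either place came from mitochondrial or nuclear RNA cannot be told from the tables. With each copy's counts added to its gene, 13 members still fell and 1 rose.

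Nuclear genes make the proteins that maintain and express the mitochondrial genome. Of 23 tested genes of mitochondrial DNA transcription and replication, 9 fell and none rose (median log2 fold change -0.19; summed level 478 to 493 CPM in Cdo1KKO/Sed and 548 to 559 CPM in WT/Sed). In that fit 18.5% of all genes fell and 18.9% rose. The calls of the list depended on scaling. With library size alone 2 fell and 1 rose, where 9.80% of all genes fell and 32.1% rose. With log2(TPM + 1) 0 fell and 3 rose, where 7.25% of all genes fell and 39.5% rose. With a library left out 5 to 10 fell, the fewest without Cdo1KKO/Sed replicate 3, where 13.6% of all genes fell. The 9 included Polrmt, the RNA polymerase of mitochondria (-0.43 ± 0.09; edgeR adjusted p = 0.00345), Mterf3, a repressor of its transcription (-0.30 ± 0.06; adjusted p = 0.00214), Top1mt, the mitochondrial topoisomerase (-0.40 ± 0.09; adjusted p = 0.00423), and Atad3a, a nucleoid-associated membrane ATPase (-0.22 ± 0.05; adjusted p = 0.00814), whose sign turned with TPM. Tfam, the packaging and initiation factor, was further down the list by p-value and is named after its value was seen, at -0.19 ± 0.06 (edgeR adjusted p = 0.0230).

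Of 21 tested genes of mitochondrial RNA processing, polyadenylation and decay, 9 fell and none rose (median -0.20; summed level 877 to 883 CPM in Cdo1KKO/Sed and 980.4 to 1036 CPM in WT/Sed). Over all genes 18.5% fell and 18.9% rose. With library size alone 2 fell and 4 rose, where 9.80% of all genes fell and 32.1% rose. With log2(TPM + 1) 0 fell and 6 rose, where 7.25% of all genes fell and 39.5% rose. With a library left out 4 to 10 fell, the fewest without Cdo1KKO/Sed replicate 1 or 2, where 13.2% and 14.5% of all genes fell. Hsd17b10, a subunit of the RNase P that frees the 5′ ends of tRNAs, averaged 59.1 ± 1.77 CPM in Cdo1KKO/Sed and 78.0 ± 3.62 CPM in WT/Sed (-0.40 ± 0.06; edgeR adjusted p = 2.12e-04). Fastkd1 (-0.37 ± 0.06) and Ptcd2 (-0.30 ± 0.07) of RNA-binding families that act on mitochondrial transcripts also fell, as did Grsf1 of the RNA granules (-0.26 ± 0.05; edgeR adjusted p = 0.00204). Of 26 genes that modify mitochondrial rRNA and tRNA, 6 fell and none rose (median -0.16), beside 18.5% of all genes that fell. With library size alone 2 fell and 6 rose, and with log2(TPM + 1) 1 fell and 6 rose, beside the same shares of all genes. Without WT/Sed replicate 1, Cdo1KKO/Sed replicate 1 or Cdo1KKO/Sed replicate 3, 4 fell, where 13.4%, 13.2% and 13.6% of all genes did. Mettl8, a tRNA methyltransferase, averaged 13.7 ± 0.135 CPM in Cdo1KKO/Sed and 23.9 ± 0.696 CPM in WT/Sed and fell by 0.80 ± 0.07 (edgeR adjusted p = 1.01e-05). Mto1, which modifies the wobble base of tRNAs, was at -0.35 ± 0.07, Mettl17, which acts on the small ribosomal subunit, at -0.42 ± 0.09, and Osgepl1, which modifies tRNA adenosine, at -0.41 ± 0.09, and all 3 fell.

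Subunits encoded in the nucleus fell alongside the mitochondrial ones. In complex I, 36 of 37 tested nuclear subunits fell (median -0.46), beside 6 of 7 mitochondrial ones (median -0.67); Ndufb4 (-0.69 ± 0.06) and Ndufa6 (-0.64 ± 0.05) showed the smallest p-values with Ndufc2 (-0.50 ± 0.05) and Ndufa8 (-0.49 ± 0.05), and Ndufb2, at 0.06 ± 0.11 (edgeR adjusted p = 0.714), was the exception, named after its value was seen. All 9 tested nuclear subunits of complex III fell (median -0.43), beside mt-Cytb at -0.33, with Cyc1, cytochrome c1, at -0.52 ± 0.06. All 14 tested of 15 listed for complex IV fell (median -0.46), beside the 3 mitochondrial ones (median -0.51), with Cox5a at -0.56 ± 0.06. All 17 tested of 20 listed for complex V fell (median -0.45), beside 1 of 2 mitochondrial ones, with Atp5j2 at -0.51 ± 0.05. With the low genes set aside, the mitochondrial median was -0.50 in complex I, and in complex IV mt-Co1 alone was left at -0.23. In complex II, which has no mitochondrial subunit, all 4 fell (median -0.42). With log2(TPM + 1), 20 subunits of complex I, 3 of II, 7 of III, 9 of IV and 12 of V fell. Over all these nuclear lists 104 of 151 genes fell and none rose in edgeR, where 18.5% of all genes fell and 18.9% rose. At an unadjusted p under 0.05, 3 were higher in edgeR, 1 in DESeq2 and 4 in limma-voom, and the 3 in edgeR, named after their values were seen, were the tRNA modification genes Yrdc, Qtrt2 and Qtrt1. The nuclear counts moved with scaling, as did those over all genes. With library size alone 73 fell and 11 rose, where 9.80% of all genes fell and 32.1% rose. With log2(TPM + 1) 52 fell and 16 rose, where 7.25% of all genes fell and 39.5% rose.

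**Figure D5:**
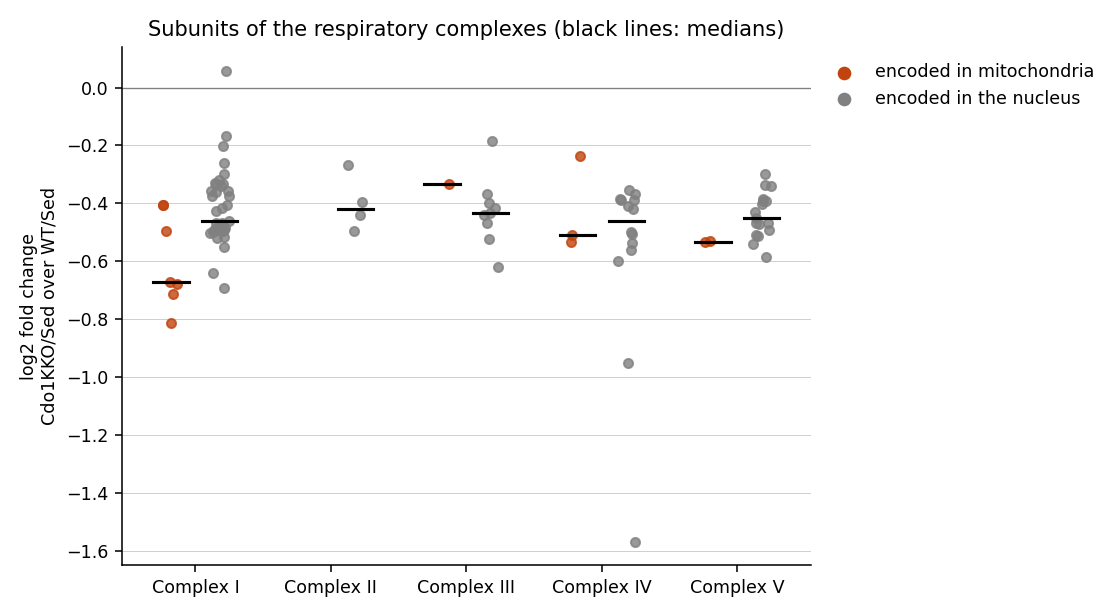
Log2 fold change of Cdo1KKO/Sed over WT/Sed (y) of each tested subunit, by respiratory complex (x) and by whether the gene lies on mitochondrial or nuclear DNA, with black lines at medians. Medians of nuclear subunits lie between -0.46 and -0.42 in the 5 complexes, and the mitochondrial points reach from -0.81 to -0.23.

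Proximal tubule markers were lower along with the mitochondrial share, and markers of other cells went both ways. All 5 tested markers of proximal tubule S1 fell (median -0.77), as did all 6 of S2 and S3 (median -0.70). Over all genes tested 18.5% fell and 18.9% rose. The median was -0.53 for the 13 mitochondrial protein genes and -0.41 for the 7 of the high set. Of thick ascending limb markers, a segment also rich in mitochondria, 3 rose and 2 fell, with a sum of 3945 to 4185 CPM in Cdo1KKO/Sed and 2343 to 3144 CPM in WT/Sed. Of distal convoluted tubule markers 2 of 4 rose and none fell (1454 to 1472 CPM in Cdo1KKO/Sed, 969.8 to 1213 CPM in WT/Sed), of intercalated cell markers 2 of 4 rose and none fell (196 to 203 CPM in Cdo1KKO/Sed, 155 to 174 CPM in WT/Sed), and of principal cell markers 2 of 4 fell and none rose (214 to 217 CPM in Cdo1KKO/Sed, 456 to 471 CPM in WT/Sed).

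Markers of blood, stromal and glomerular cells were also compared, beside the same 18.5% of all genes that fell and 18.9% that rose. All 5 red blood cell markers rose, with a sum of 409.7 to 433 CPM in Cdo1KKO/Sed and 26.7 to 54.2 CPM in WT/Sed. All 3 tested neutrophil markers rose (12.6 to 16.1 CPM in Cdo1KKO/Sed, 1.50 to 2.54 CPM in WT/Sed), 3 of 5 macrophage markers rose and 1 fell (69.4 to 71.9 CPM in Cdo1KKO/Sed, 49.6 to 71.8 CPM in WT/Sed), and all 4 fibroblast and pericyte markers rose (49.9 to 57.1 CPM in Cdo1KKO/Sed, 19.4 to 26.2 CPM in WT/Sed). None of the 4 endothelial markers (147 to 153 CPM in Cdo1KKO/Sed, 36.8 to 145 CPM in WT/Sed) or of the 4 podocyte markers (245 to 265 CPM in Cdo1KKO/Sed, 195 to 391 CPM in WT/Sed) passed in either direction in edgeR, DESeq2 or limma-voom, also at an unadjusted p under 0.05. The median log2 fold change was 0.65 for the endothelial and -0.22 for the podocyte markers. Every endothelial sum in Cdo1KKO/Sed lay above every sum in WT/Sed, where the sums spread widely. Muscle and brown adipocyte markers stayed under 1 CPM in sum in all libraries. The part of cell composition in the lower mitochondrial share was not tested.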

How the data were processed

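Per the labels' protocols, total RNA of mouse kidney was enriched for poly(A) RNA with oligo(dT) beads and made into libraries with a VAHTS Universal V6 kit. Per the submitters' processing notes, fastp 0.23.4 and the builds GRCm38 and mm10 were used; for the aligner, counter, annotation, strand setting and treatment of reads with several matches, nothing is given in the sources read. Deposited by the authors were whole-number counts per gene and, in a second table, TPM for the same genes. Counts were tested in R 4.3.3 with edgeR 4.0.16 (filterByExpr, which kept 17194 genes, TMM, robust quasi-likelihood F test, group as the only term), with Benjamini-Hochberg adjustment over all genes tested and a threshold of 0.05; SE is the log2 fold change over the square root of F and is approximate. The fit relative to the pool set library size to the counts of the 13 mitochondrial protein genes. Alternatives used DESeq2 1.42.0 and limma 3.58.1 (voom on counts; log2 of TPM plus 1 or 0.1). Levels are compared between genes in TPM only.

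Groups came from the labels. Libraries held 28145261 to 43872779 counts, so that counting error is small for all but the tRNA genes and the low protein genes. Gene positions and sequences are from GENCODE M21 (GRCm38); copies were found with BLAST (word size 24) and exact windows of 100 bases. The genes named are all mitochondrial genes, Cdo1, the listed copies and up to 4 members of each nuclear list with the smallest p; Gm10222, Tfam, Ndufb2, Yrdc, Qtrt1, Qtrt2 and the list of RNAs without a poly(A) tail were added after values were seen. The members and lists were chosen with earlier results of these data known. The fits were tested on simulated data. No sample was left out of the main comparison.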

Additional observations from a re-analysis of the deposited data

How the results depend on the processing

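Under 19 alternatives mt-Rnr1 rose in each (log2 fold change of 0.87 to 1.16), and mt-Nd1, mt-Nd2, mt-Nd4, mt-Nd5, mt-Nd6, mt-Co2, mt-Nd4l and mt-Tp fell in each. The count of mitochondrial genes that fell was 13 in the comparison as reported and 13 to 14 when each library was left out in turn; 8 fell with log2(TPM + 1) over all genes without a filter, where mt-Rnr2, mt-Co3, mt-Cytb, mt-Atp6 and mt-Co1 no longer passed; all of these but mt-Atp6 also failed to pass in both other TPM settings. The TPM values reversed mt-Co1 (0.018 in each of 3 settings) and Atad3a (0.034 with TPM plus 1, with and without the filter, and 0.035 with TPM plus 0.1); mt-Tc, which passed in no setting, also changed sign (0.16 to 0.17). The median of all genes was 0.18 with library size only, 0.19 with TPM plus 1 and 0.25 with TPM plus 0.1, against 0.01 as reported; relative to it 16 of 17 tested members lay lower in these settings. The nuclear lists had 104 genes that fell (86 to 107 with a library left out), 52 with TPM plus 1, 52 with TPM plus 0.1 and 41 with TPM over all genes. None rose there as reported, and 0 to 1 with a library left out (1 without WT/Sed replicate 2 and 1 without WT/Sed replicate 3). With a mean CPM of at least 1, 1 rose. With library size only 11 rose, where 32.1% of all genes rose. With TPM plus 1 it was 16 beside 39.5%, with TPM plus 0.1 16 beside 38.7%, and with TPM over all genes 11 beside 18.5%. Apart from the shift of the median the cause was not tested. Relative to the pool, 2 to 3 members fell and 2 rose with a library left out. Over all genes 2.89% to 4.78% fell and 45.2% to 54.9% rose in those fits. Relative to the pool mt-Co3 also fell without WT/Sed replicate 3 (-0.26, edgeR adjusted p = 0.0154). The difference in mitochondrial share was -2.19 points, -2.31 to -2.08 with a library left out and -3.06 points as a share of TPM. The replicate numbers did not pair the libraries (correlations of deviations of -0.00218, 0.0105 and 0.0125 for equal numbers); with the replicate number as a block 13 mitochondrial genes fell and 1 rose, 3 fell and 2 rose relative to the pool, and 104 genes of the nuclear lists fell. Few counts limit the tRNA genes other than mt-Tp, most of which were too low to test.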
